A study of Mus musculus with 6 samples.

Results

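The methionine sulfoxide reductase genes are a set of 4 named genes, Msra, Msrb1, Msrb2 and Msrb3, chosen by name alone from the 24454 gene numbers in the deposited table, and all 4 were found. They were measured in MTflEcad cells, breast cancer cells of epithelial type whose mouse strain is MMTV-Neu, named for the promoter, active in mammary gland, that drives the Neu (ERBB2) oncogene. The PBS line, labelled as 0 µM over the same 7 months and described as untreated, is the control for 2 lines given H2O2 daily, I80 at 80 µM and DI150 at 150 µM. Each dose is 1 line, so dose and line cannot be told apart, and all 3 lines carry the same transgene background. RNA depleted of ribosomal RNA was sequenced from 2 libraries per line, described as biological duplicates. The sources do not say whether duplicates were separate long-term cultures, so the p-values cover no more than library to library spread, which may be technical.

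H2O2 and related oxidants turn methionine into methionine sulfoxide, in proteins and as the free amino acid, in an S and an R form. The methionine sulfoxide reductases turn it back and are themselves recharged by thioredoxin, which draws on NADPH through thioredoxin reductase. Msra encodes the enzyme for the S form, found in the cytosol and in mitochondria. The R form in proteins is handled by the MSRB enzymes: Msrb1 encodes the selenoprotein of the cytosol and nucleus, Msrb2 the mitochondrial enzyme, and Msrb3 an enzyme of the endoplasmic reticulum.

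The catalytic residue sets Msrb1 apart within the family, and the codons are shown because the selenoprotein genes come up again in the results. The lines give 30 bases of the longest coding transcript of each gene in GENCODE release M21 (GRCm38), 5′ to 3′, with the codon of the catalytic residue in capitals. For Msrb2 and Msrb3 that codon was found by aligning the proteins translated from their coding sequences with that of Msrb1.
Msra: tttggaatgggcTGCttctggggagctgag
Msrb1: caatcaagattcTGAatatttagcagctca
Msrb2: ggccaaaggtttTGCatcaacagtgtggcc
Msrb3: ggcaaaagatacTGCatcaactcagcatcc
Msrb1 alone has the stop codon TGA there (chr17:24740158-24740160, plus strand), which GENCODE annotates as selenocysteine, at codon 95 of 116. The other three have the cysteine codon TGC, at codon 72 of 233 in Msra (chr14:64285173-64285175, minus strand), codon 162 of 175 in Msrb2 (chr2:19394311-19394313, plus strand) and codon 151 of 186 in Msrb3 (chr10:120784176-120784178, minus strand). The codons of Msrb1, Msrb2 and Msrb3 and the bases printed around them each lie in 1 exon, while the bases shown for Msra cross an exon junction.

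The libraries held 21017849 to 26608715 reads assigned to genes, and levels are in CPM, reads of a gene per 1000000 assigned reads. The epithelial markers Epcam, Cdh1, Krt8, Krt18 and Cldn3 were present in every library, whereas Krt19 was at 0 and Cldn4 under 1 CPM in the 4 treated libraries, and the 7 epithelial markers summed to 2894 to 3272 CPM in treated libraries and to 6284 and 6323 CPM in PBS. Krt8 and Krt18 made up most of that sum in the PBS and I80 libraries, but not in those of DI150. In I80 6 of the 7 markers were lower than in PBS and 0 higher, while in DI150 5 were lower and Epcam was higher. Over all tested genes, 34.2% were lower and 32.3% higher in I80, and 36.1% lower and 32.7% higher in DI150. Epcam averaged 605.9 ± 32.1 CPM in PBS, 681.7 ± 48.3 CPM in I80 and 1055 ± 75.4 CPM in DI150 (SD, n = 2; limma adjusted p = 0.122 and 0.000115 against PBS). The 7 fibroblast markers summed to 21.8 to 24.03 CPM in all 6 libraries, but not from the same genes: Col1a2 was at 0 in all treated libraries and averaged 15.3 CPM in PBS, while Pdgfra averaged 14.8 CPM in I80 and 18.7 CPM in DI150 beside 5.27 CPM in PBS, and Col1a1 8.90 and 3.74 CPM beside 2.11 CPM. The 4 endothelial markers stayed under 1 CPM and the 3 adipocyte markers at or under 0.162 CPM. The 5 immune markers summed to 1.57 to 2.06 CPM in treated libraries and to 9.77 and 17.2 CPM in PBS, most of the PBS sums coming from Csf1r, which was at 0 in all treated libraries and at 7.67 and 14.5 CPM in PBS. Most of the treated sums came from Cd68, which averaged 1.89 ± 0.130 CPM in I80, 1.63 ± 0.286 CPM in DI150 and 2.13 ± 0.413 CPM in PBS (SD, n = 2 each) and passed in neither line (limma adjusted p = 0.557 and 0.193). Ptprc, which marks leukocytes, stayed under 0.3 CPM everywhere and Adgre1 and Cd3e were at 0. What these markers contribute to the results was not tested, and in bulk RNA fewer cells of a kind and less RNA per cell cannot be told apart.

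All 4 genes differed from PBS in both treated lines, and they did not move one way: the 3 MSRB genes rose and Msra fell. Msrb2 rose 7.17-fold in I80 and 5.90-fold in DI150 against PBS, Msrb3 rose 3.85-fold and 5.29-fold, and Msrb1 1.79-fold and 2.46-fold, while Msra was 2.49-fold lower in I80 and 2.02-fold lower in DI150. Which of Msrb2 and Msrb3 had the larger log2 fold change in DI150 turned on single libraries: 2.44 for Msrb2 and 2.40 for Msrb3 with all libraries, but 2.17 and 2.25 without PBS replicate 1, and 2.37 and 2.39 without DI150 replicate 3. Both comparisons share the PBS libraries. Among the 11428 genes tested, limma called 66.4% in I80 against PBS, 32.3% higher and 34.2% lower, and 68.7% in DI150 against PBS, 32.7% higher and 36.1% lower, so 4 calls of 4 stand beside a background in which most genes were called. The size of the changes is a separate description: 198 tested genes (1.73%) had a larger log2 fold change than Msrb2 in I80, 394 (3.45%) a larger one than Msrb3 and 1343 (11.8%) a larger one than Msrb1, and 1007 (8.81%) had a smaller one than Msra. In DI150 those counts were 294 (2.57%) for Msrb2, 307 (2.69%) for Msrb3, 841 (7.36%) for Msrb1 and 1413 (12.4%) for Msra. The median log2 fold change of the 4 genes was 1.38 in I80 and 1.84 in DI150, beside -0.002 and -0.03 over all tested genes.

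**Figure D1:**
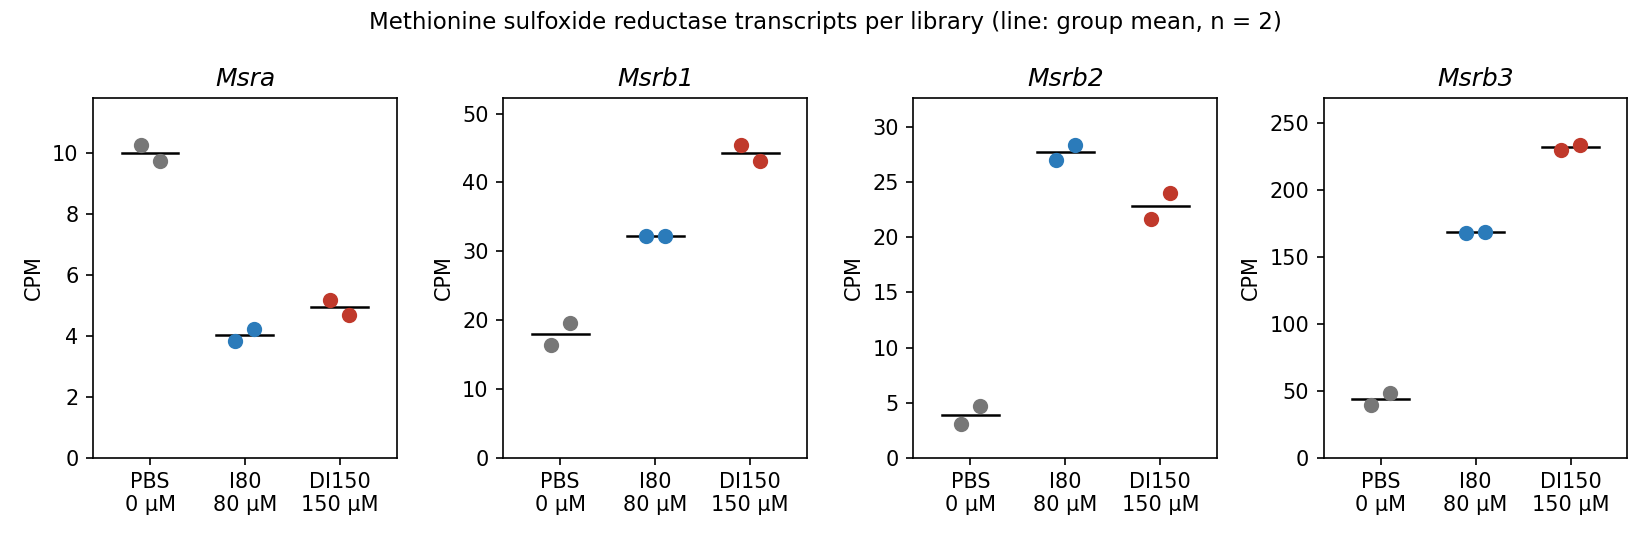
CPM of each reductase gene in each library (points) by line and daily H2O2 dose, with the mean of 2 libraries as a line and each vertical axis starting at 0. Msra is lower in all 4 treated libraries than in both PBS libraries, and Msrb1, Msrb2 and Msrb3 are higher in all 4.

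Msra lies on chromosome 14 of GRCm38 (64122625 to 64455903, minus strand), a gene of 333.3 kb whose longest coding transcript has 11 exons. Its levels by rising dose were 10.3 and 9.75 CPM in PBS, 3.82 and 4.20 CPM in I80, and 5.19 and 4.69 CPM in DI150. Both treated lines lay below PBS with no overlap, and I80 below DI150. Msra averaged 4.01 ± 0.269 CPM in I80 and 10.0 ± 0.364 CPM in PBS (SD, n = 2 each), a log2 fold change of -1.22 ± 0.13 SE (limma adjusted p = 0.000125). In DI150 it averaged 4.94 ± 0.348 CPM, a log2 fold change against PBS of -0.95 ± 0.13 SE (limma adjusted p = 0.000456). These values rest on 98 to 123 reads per treated library and on 273 and 241 reads in PBS, the smallest read numbers in the family for the treated lines.

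Msrb1, the selenoprotein gene, lies on chromosome 17 (24736642 to 24742778, plus strand) within 6.14 kb and 4 exons. It stood at 16.3 and 19.6 CPM in PBS, 32.2 and 32.2 CPM in I80, and 45.4 and 43.1 CPM in DI150. The 3 lines formed separate steps along the dose series. The mean was 32.2 ± 0.0293 CPM in I80 and 17.98 ± 2.31 CPM in PBS (SD, n = 2 each), a log2 fold change of 0.83 ± 0.11 SE (limma adjusted p = 0.000289). In DI150 the mean was 44.3 ± 1.64 CPM, a log2 fold change against PBS of 1.28 ± 0.11 SE (limma adjusted p = 2.61e-05).

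Msrb2, the mitochondrial member, lies on chromosome 2 (19371440 to 19394976, plus strand), with 5 exons. It was the lowest member in PBS at 3.04 and 4.69 CPM (81 and 116 reads), and stood at 27.0 and 28.4 CPM in I80 and at 21.6 and 24.003 CPM in DI150. Every treated library was over 4 times the higher PBS library, and the I80 libraries lay above those of DI150. The log2 fold change was 2.72 ± 0.18 SE in I80 against PBS (limma adjusted p = 8.38e-06) and 2.44 ± 0.18 SE in DI150 against PBS (limma adjusted p = 1.35e-05). Relative to the mean, the PBS libraries differed most from each other for this gene among the 4, with an SD of 1.16 CPM around a mean of 3.87 CPM.

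Msrb3, the endoplasmic reticulum member, whose loss in humans causes inherited deafness, lies on chromosome 10 (120781096 to 120899101, minus strand), with 7 exons over 118.0 kb. It had 39.1 and 48.4 CPM in PBS, 167.8 and 168.5 CPM in I80, and 229.5 and 233.4 CPM in DI150. Like Msrb1 it stood in separate steps along the dose series. Means were 168.1 ± 0.514 CPM in I80 and 43.7 ± 6.56 CPM in PBS (SD, n = 2 each), a log2 fold change of 1.94 ± 0.10 SE (limma adjusted p = 2.10e-06), and 231.5 ± 2.74 CPM in DI150, a log2 fold change against PBS of 2.40 ± 0.10 SE (limma adjusted p = 6.64e-07). The one gene that RefSeq places across it, the noncoding RNA gene Gm15910, had no read in any library, and RefSeq places no other counted gene across a reductase gene.

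I80 and PBS libraries did not overlap for any of the 4 genes, nor did DI150 and PBS libraries, while 83.7% and 83.5% of all tested genes were free of overlap in these comparisons. An exact permutation test of 2 libraries against 2 cannot give a two-sided p below 0.333, so calls rest on limma, which borrows information on the spread from all tested genes.

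DI150 against I80 tests whether the lines differ in their departure from PBS. Msrb1 and Msrb3 were higher in DI150, by nearly equal amounts, and the other two did not pass the test. Msrb1 was 1.38-fold higher, with a log2 fold change of 0.45 ± 0.11 SE (limma adjusted p = 0.0116). Msrb3 was also 1.38-fold higher, at 0.46 ± 0.10 SE on that scale (limma adjusted p = 0.00806). Msrb2 averaged 22.8 ± 1.66 CPM in DI150 and 27.7 ± 0.962 CPM in I80 (limma adjusted p = 0.249), with a 95% interval of the log2 fold change from -0.69 to 0.14. Msra averaged 4.94 ± 0.348 CPM in DI150 and 4.01 ± 0.269 CPM in I80 (limma adjusted p = 0.142), with an interval from -0.04 to 0.58. The DI150 and I80 libraries did not overlap for any of the 4 genes, as for 78.5% of tested genes, and 43.8% of tested genes were called, 21.9% in each direction. The call of Msrb1 was lost without DI150 replicate 1 (limma adjusted p = 0.0799), I80 replicate 1 (0.0772) or I80 replicate 2 (0.0777), and that of Msrb3 without DI150 replicate 3 (0.0537), I80 replicate 1 (0.06) or I80 replicate 2 (0.0585), with log2 fold changes of 0.42 to 0.46 in these fits. Over all genes, the 5008 calls of this comparison fell to 3012 without DI150 replicate 1, 3209 without DI150 replicate 3, 2541 without I80 replicate 1 and 2487 without I80 replicate 2.

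**Figure D2:**
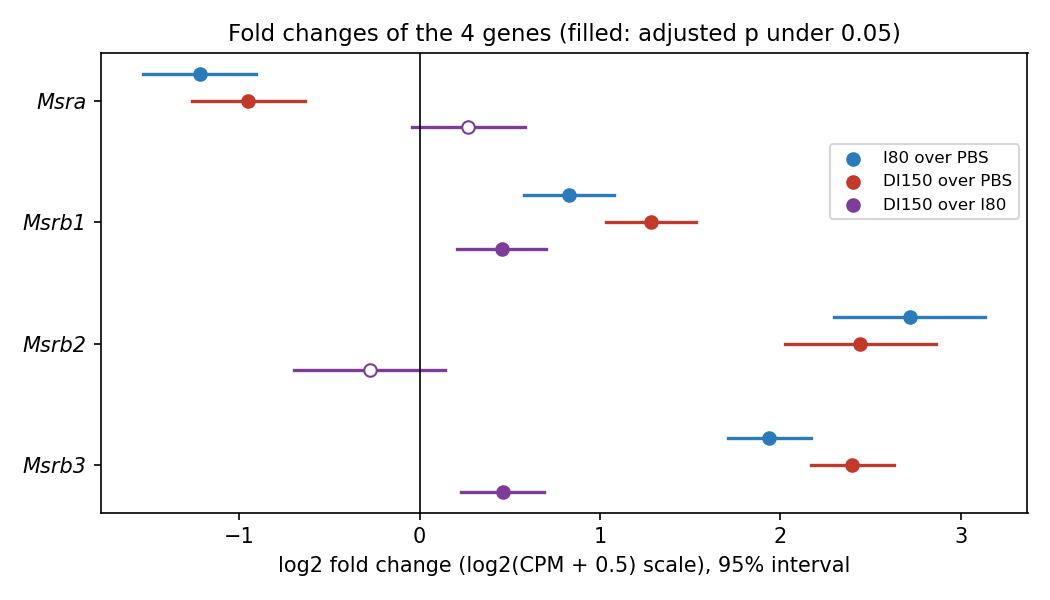
Log2 fold change of each reductase gene on the log2(CPM + 0.5) scale (horizontal axis) in the 3 comparisons, with 95% intervals from limma as lines and filled points for an adjusted p under 0.05. Against PBS, Msra lies left of 0 and the MSRB genes right of 0 in both treated lines, and Msra and Msrb2 have open points for DI150 over I80.

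Levels of different genes were compared per kb of the longest coding transcript, which is 1860 bases for Msra, 1211 for Msrb1, 1196 for Msrb2 and 3843 for Msrb3. Along the dose series the order of the family changed. In PBS, Msrb1 and Msrb3 stood at 14.8 ± 1.91 and 11.4 ± 1.71 CPM per kb, with no overlap between their libraries, above Msra at 5.38 ± 0.196 and Msrb2 at 3.23 ± 0.974 (SD, n = 2). In I80 the order was Msrb3 at 43.8 ± 0.134, Msrb1 at 26.6 ± 0.0241, Msrb2 at 23.2 ± 0.804 and Msra at 2.16 ± 0.145 CPM per kb. In DI150 Msrb3 at 60.2 ± 0.712 led Msrb1 at 36.6 ± 1.35, Msrb2 at 19.1 ± 1.39 and Msra at 2.66 ± 0.187 CPM per kb. With the length taken as all annotated exons joined (4295 bases for Msra), the means of Msra and Msrb2 change places in PBS, at 2.33 and 2.81 CPM per kb. The libraries overlap there: Msra and Msrb2 are at 2.39 and 2.21 in PBS replicate 1, and at 2.27 and 3.41 in replicate 2.

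The make-up of the family shifted with these changes. Msra made up 17.4% and 13.8% of the summed CPM per kb of the 4 genes in the PBS libraries, 2.17% and 2.34% at 80 µM (I80), and 2.36% and 2.12% at 150 µM (DI150). Msrb3 made up 32.1% and 33.2% without H2O2 (PBS), 46.0% and 45.5% in the I80 libraries, and 50.6% and 51.1% in those of DI150. Msrb2 had its highest share in I80, 23.8% and 24.6%, beside 8.02% and 10.3% in PBS and 15.3% and 16.9% in DI150. The ratio of summed MSRB transcripts to Msra transcripts, per kb, was 4.75 and 6.24 in the PBS libraries. It reached 45.1 and 41.7 in those of I80, and 41.4 and 46.1 in those of DI150. The I80 and DI150 libraries overlap in that ratio, and all 4 lie above PBS. Over all annotated exons joined, the ratio is over 2 times as large, at 10.4 and 13.6 in PBS libraries, 97.3 and 89.7 in those of I80, and 89.9 and 100.1 in those of DI150, and the share of Msra is 8.77% and 6.83% at 0 µM, 1.02% and 1.10% at 80 µM, and 1.10% and 0.989% at 150 µM.

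**Figure D3:**
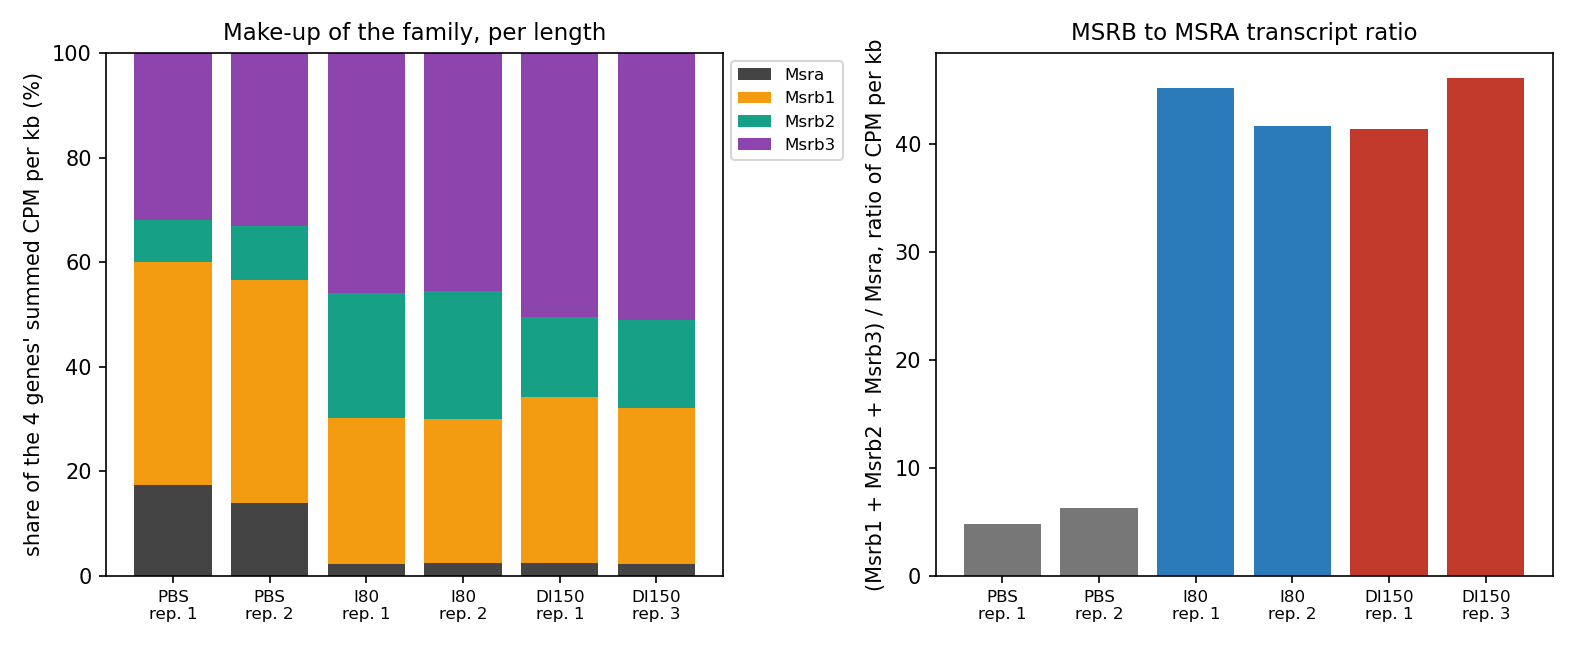
Left, share of each reductase gene in the summed CPM per kb of the 4 genes in each library. Right, ratio of Msrb1, Msrb2 and Msrb3 together to Msra, in CPM per kb, which runs from 41.4 to 46.1 in treated libraries and is 4.75 and 6.24 in PBS. With the length of all annotated exons joined it would run from 89.7 to 100.1 and be 10.4 and 13.6.

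The genomic surroundings of the members were set beside their changes. Msra sits among genes that mostly fell: of the 10 nearest tested genes, 5 on each side and within 976.7 kb, 8 were lower and 0 higher in I80 than in PBS, with a median log2 fold change of -0.69, and in DI150 7 were lower and 1 higher, with a median of -0.60. Of all tested genes, 34.2% were lower and 32.3% higher in I80, and 36.1% lower and 32.7% higher in DI150. The 367 tested genes of chromosome 14 had medians of -0.59 in I80 and -0.41 in DI150 against PBS, beside -0.002 and -0.03 over all genes. Msra itself was at -1.22 and -0.95, below both medians in each line. The part of these regional shifts in the change of Msra was not tested.

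Each MSRB gene lay above the median of its neighbours and of its chromosome in both lines. For Msrb2 the 10 neighbours ran from -0.28 to 1.19 in I80 and from -0.26 to 1.02 in DI150 (7 higher and 0 lower in each line), below Msrb2 at 2.72 and 2.44, and the 890 tested genes of chromosome 2 had medians of 0.43 and 0.19. For Msrb1 the neighbour medians were 0.07 in I80 and -0.03 in DI150, with 4 neighbours higher and 1 lower in each line, and the 569 genes of chromosome 17 had medians of 0.10 and 0.28. Msrb1 itself, at 0.83 and 1.28, lay within the range of its neighbours, -0.39 to 1.14 in I80 and -0.48 to 1.64 in DI150. For Msrb3 the neighbour medians were 0.69 and 0.66, with 8 higher and 1 lower in I80 and 9 higher and 1 lower in DI150 (over all genes 32.3% and 32.7% were higher), and the 545 genes of chromosome 10 had medians of -0.01 and 0.14. In I80 Msrb3 itself was at 1.94, within the range of its neighbours, -2.84 to 2.04. In DI150 it was at 2.40, above all 10 neighbours, which ran from -4.25 to 2.10.

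**Figure D4:**
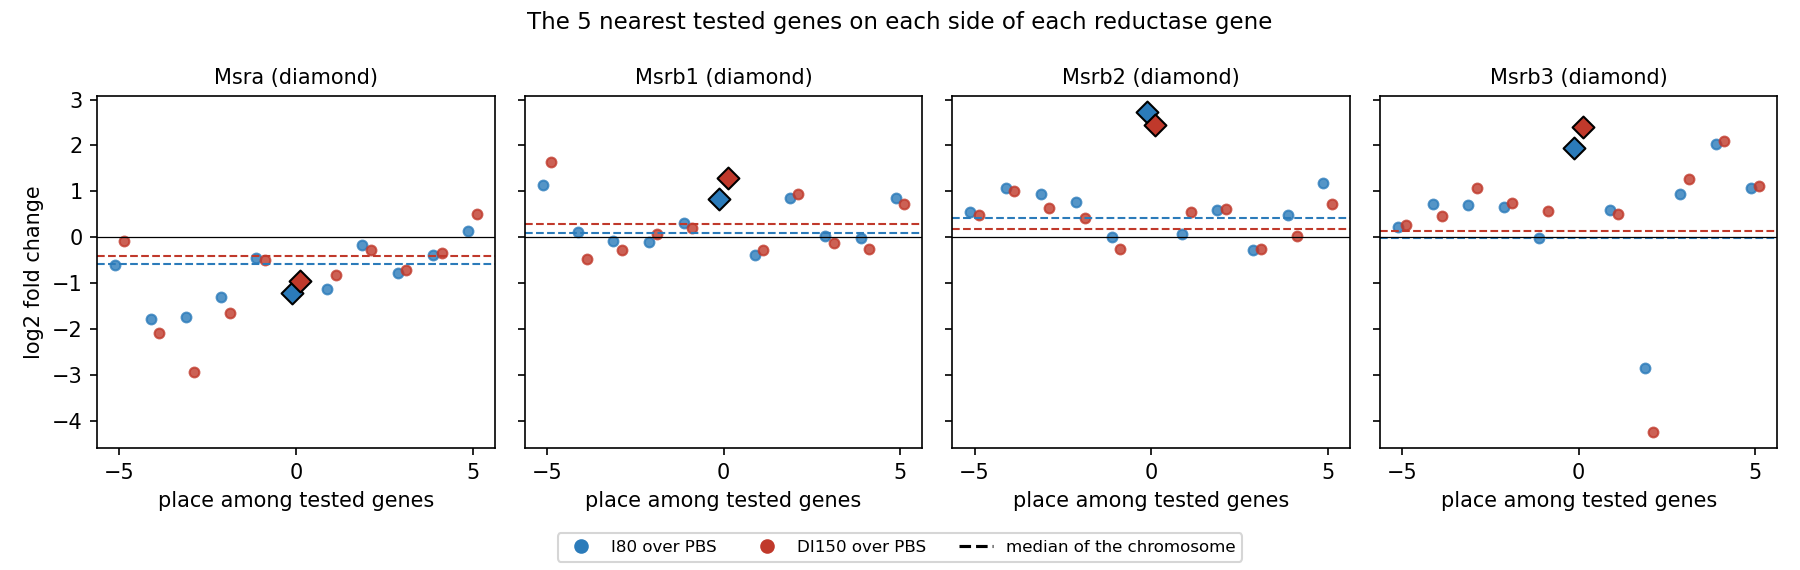
Log2 fold change of each reductase gene (diamond) and of the 5 nearest tested genes on each side (points, in chromosome order), with the median of all tested genes of that chromosome as a dashed line. Msrb2 lies above all 10 of its neighbours in both lines, while Msra lies within the range of its neighbours.

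The promoters of the 3 genes that rose together are shown with 2 motifs marked: the core of the antioxidant response element, the site bound by NRF2, searched as TGACNNNGC, and the GC box bound by SP1 and related factors, searched as GGGCGG, each on both strands. Each RefSeq window (GRCm38.p6) starts 250 bases before the RefSeq transcript start. GENCODE starts Msrb2 and Msrb3 further upstream, so the lines give, 5′ to 3′ on the gene's strand, only the 250 bases of Msrb1, 54 of Msrb2 and 120 of Msrb3 that lie before both starts, with matches in capitals.
Msrb1: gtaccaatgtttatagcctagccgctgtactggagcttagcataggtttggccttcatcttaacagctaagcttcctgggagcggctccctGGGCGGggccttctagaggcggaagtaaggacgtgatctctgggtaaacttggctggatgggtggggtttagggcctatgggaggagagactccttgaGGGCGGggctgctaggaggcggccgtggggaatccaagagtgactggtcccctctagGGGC
Msrb2: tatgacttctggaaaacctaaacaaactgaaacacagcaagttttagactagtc
Msrb3: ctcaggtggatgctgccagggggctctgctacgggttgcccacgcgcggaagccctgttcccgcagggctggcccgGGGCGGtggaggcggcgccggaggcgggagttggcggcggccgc
These are chr17:24736343-24736592 (plus strand) for Msrb1, chr2:19371386-19371439 (plus strand) for Msrb2 and chr10:120899102-120899221 (minus strand) for Msrb3, and Msra was not matched. Over the full table windows, which run 50 bases past the start, Msrb1 and Msrb3 each had 3 GC boxes and Msrb2 had none. The last box of Msrb1 lies across the start, and the other two of Msrb3 begin 47 and 11 bases before the RefSeq start, past the bases printed. Msrb2 alone had a match to the antioxidant core, on the opposite strand and beginning at base 40 from the RefSeq start, in the site gggaggaaacccgttggtgGCAGCGTCAtg. Of 32851 promoters of the same length, 35.7% hold a GC box and 12.4% the antioxidant core, so either is common. The window of Msrb3 had 74.0% G and C and 38 CpG, beside medians of 52.7% and 7 over all promoters in the table. A match is a description of the letters and not evidence of binding.

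Each member was also matched to the tested genes whose profile was most like it, by the distance between centred log2(CPM + 0.5) values over the 6 libraries, among 9818 candidates with a mean of at least 5 CPM. The 6 points come from 3 lines, so a small distance reflects few independent points and carries nothing on shared function. Nearest to Msra were Tmem63a, an ion channel gene (distance 0.120), the kinase gene Tesk1 (0.123) and Pacsin2 (0.136), whose product bends membranes. Nearest to Msrb1 were the lipid kinase gene Pip4k2c (0.0942), the phosphatase gene Acp6 (0.128) and Bmp1 (0.142), which encodes a procollagen protease. Nearest to Msrb3 were the laminin gene Lama4 (0.139), Chpt1 (0.266), an enzyme of phosphatidylcholine synthesis, and Arhgap28 (0.278). For Msrb2 the nearest were Mfge8 (0.299), Serinc3 (0.331) and the deubiquitinase gene Mindy1 (0.334), all further off. Within the family the closest pair was Msrb2 and Msrb3 at 0.898, and the most distant Msra and Msrb2 at 4.29.

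The enzymes that recharge the reductases did not change alike: the thioredoxin reductases of cytosol and mitochondria rose in both treated lines, and neither thioredoxin gene did. Txnrd1 had 343.5 and 290.9 CPM in PBS, 755.5 and 828.4 CPM in I80, and 901.3 and 925.4 CPM in DI150. It was 2.50-fold higher in I80 and 2.88-fold higher in DI150 than in PBS (limma adjusted p = 1.27e-05 and 5.46e-06). Txnrd2, which serves mitochondria, had 15.6 and 12.6 CPM in PBS, 42.5 and 44.0 CPM in I80, and 45.8 and 44.3 CPM in DI150, 3.07-fold and 3.20-fold above PBS (limma adjusted p = 1.16e-05 and 8.82e-06). The treated libraries of both genes lay well above PBS. The cytosolic thioredoxin gene Txn1 averaged 371.6 ± 24.2 CPM in PBS, 413.1 ± 19.5 CPM in I80 and 389.9 ± 7.04 CPM in DI150 (SD, n = 2 each), which did not pass in either line (limma adjusted p = 0.0986 and 0.416), though I80 passed without PBS replicate 1 (0.032).

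The mitochondrial thioredoxin gene Txn2 averaged 166.5 ± 0.826 CPM in I80 and 193.5 ± 20.6 CPM in PBS, which did not pass (limma adjusted p = 0.0596, and 0.0109 without PBS replicate 2). In DI150 it fell to 156.4 ± 8.87 CPM, 1.24-fold below PBS (limma adjusted p = 0.0145), a call lost without DI150 replicate 3 (0.095). Txnip, which encodes a protein that binds and inhibits thioredoxin, moved most in this group: 4.13 and 10.7 CPM in PBS, 109.5 and 95.0 CPM in I80, and 129.4 and 104.5 CPM in DI150. Its rise was 13.8-fold in I80 and 15.8-fold in DI150 (limma adjusted p = 4.55e-05 and 3.29e-05). The size of that rise turns on the PBS libraries: without PBS replicate 1 the log2 fold change is 3.20 in I80 and 3.39 in DI150, without PBS replicate 2 it is 4.47 and 4.66, and with all libraries 3.83 and 4.02. In all, of the 6 genes listed for the thioredoxin supply, the inhibitor Txnip included, 4 rose and 0 fell in I80, while 3 rose and 1 fell in DI150. Their median log2 fold changes, also with Txnip, were 1.05 and 0.80. Among all tested genes, 32.3% were higher and 34.2% lower in I80, and 32.7% and 36.1% in DI150. Txnrd3, a reductase best known from testis, was higher in I80 than in PBS and lower in DI150 than in I80, at 8.22 ± 0.869 CPM in PBS, 14.4 ± 0.389 CPM in I80 and 8.63 ± 0.635 CPM in DI150 (limma adjusted p = 0.00105 for I80 against PBS and 0.00391 for DI150 against I80).

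MICAL enzymes oxidize methionines of actin, which MsrB1 can reduce again in mouse cells. Of the 3 genes, Mical1 was too low to test, at 0.191 CPM or less in every library, and Mical3 averaged 81.6 ± 5.77 CPM in PBS, 80.7 ± 1.69 CPM in I80 and 79.1 ± 3.45 CPM in DI150 (SD, n = 2 each), which did not pass (limma adjusted p = 0.874 and 0.623 against PBS). Mical2 had 3.53 and 4.04 CPM in PBS, 4.33 and 5.28 CPM in I80, and 4.90 and 6.26 CPM in DI150, and passed in DI150 (limma adjusted p = 0.035). That call is lost without any one of DI150 replicate 3, I80 replicate 1 or 2, and PBS replicate 1 or 2. It is also lost by DESeq2 (adjusted p = 0.0688), in the limma fit on the 4 libraries compared (adjusted p = 0.0551) and by limma without an expression filter (adjusted p = 0.0764). The Mical2 libraries lay above both PBS values in each treated line. Of all tested genes, 83.7% in I80 and 83.5% in DI150 were free of overlap with PBS, so this adds little.

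Msrb1 shares its use of selenium with 23 other selenoprotein genes listed, of which 18 could be tested, and their calls were split about as those of all genes in I80. In I80, 7 rose and 6 fell, and in DI150, 6 rose and 3 fell, with median log2 fold changes of -0.10 and 0.03 beside 0.83 and 1.28 for Msrb1. Over all tested genes, 32.3% were higher and 34.2% lower in I80, and 32.7% and 36.1% in DI150. Gpx2 and Gpx1, peroxidases of H2O2, led the rises at 9.09 and 1.74 (log2) in I80 and 9.34 and 1.97 in DI150, followed by Txnrd2. Between the treated lines, 5 were higher and 3 lower in DI150, beside 21.9% of all tested genes in each direction. Selenof, of the endoplasmic reticulum, had 199.8 ± 6.09 CPM in DI150 and 116.4 ± 2.93 CPM in I80 (limma adjusted p = 0.000133), and Selenoo, of mitochondria, had 19.7 ± 0.197 CPM in DI150 and 11.6 ± 0.487 CPM in I80 (limma adjusted p = 0.000939). Txnrd3 led those that were lower in DI150. Among the 5 that could not be tested, Selenop, the selenium carrier, had 1.54 and 2.91 CPM in PBS, 0.312 and 0.165 CPM in I80 and no read in DI150.

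The genes that place selenocysteine into proteins included members called in either direction, as do all tested genes, of which 66.4% were called in I80 and 68.7% in DI150. Of 8 tested, 4 rose and 3 fell in I80, and 1 rose and 3 fell in DI150, with medians of 0.13 and -0.05 on the log2 scale. Trnau1ap, a partner of the selenocysteine tRNA, fell to 12.5 ± 0.252 CPM in I80, against 26.0 ± 2.18 CPM in PBS (SD, n = 2 each; limma adjusted p = 9.10e-05). In DI150 it fell less, to 18.55 ± 0.815 CPM (limma adjusted p = 0.00489 against PBS). Scly, which frees selenium from selenocysteine for reuse, averaged 35.9 ± 7.48 CPM in PBS, and it fell to 18.1 ± 0.0211 CPM in I80 and 19.8 ± 1.75 CPM in DI150 (limma adjusted p = 0.000729 and 0.00148). Eefsec, the elongation factor for selenocysteine, fell to 25.1 ± 0.217 CPM in DI150, against 42.6 ± 0.0842 CPM in PBS (limma adjusted p = 0.000125). In I80 it fell less, to 32.1 ± 1.67 CPM (limma adjusted p = 0.00349 against PBS). Sepsecs, the last enzyme in making the charged tRNA, was higher in DI150, at 19.8 ± 0.972 CPM, than in PBS, at 13.5 ± 0.652 CPM (limma adjusted p = 0.00259). Secisbp2l, a relative of the protein that reads the selenocysteine signal, was higher in I80 at 197.1 ± 3.49 CPM than in PBS at 111.8 ± 30.2 CPM (limma adjusted p = 0.00195).

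Among 10 tested genes that supply, recycle or carry methionine, 1 rose and 3 fell in I80, and 1 rose and 4 fell in DI150, smaller shares called than the 66.4% and 68.7% of all tested genes. Slc43a2, a transporter of neutral amino acids, had 149.9 and 200.6 CPM in PBS, 23.5 and 32.0 CPM in I80, and 29.2 and 36.6 CPM in DI150, 6.32-fold and 5.33-fold below PBS (limma adjusted p = 1.31e-05 and 2.06e-05). Mtr, methionine synthase, averaged 39.7 ± 3.26 CPM in PBS, 19.8 ± 1.95 CPM in I80 and 18.8 ± 1.40 CPM in DI150 (SD, n = 2 each; limma adjusted p = 0.000172 and 0.00011). All 4 treated libraries of both genes lay below PBS. Gnmt, which uses up S-adenosylmethionine, averaged 2.55 ± 0.105 CPM in PBS and rose to 6.34 ± 0.416 CPM in I80 and 6.75 ± 1.02 CPM in DI150 (limma adjusted p = 0.00034 and 0.00023). Mat2b, a subunit of S-adenosylmethionine synthetase, was lower at 64.5 ± 3.88 CPM in DI150 than in I80 at 87.8 ± 0.222 CPM (limma adjusted p = 0.00243).

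**Figure D5:**
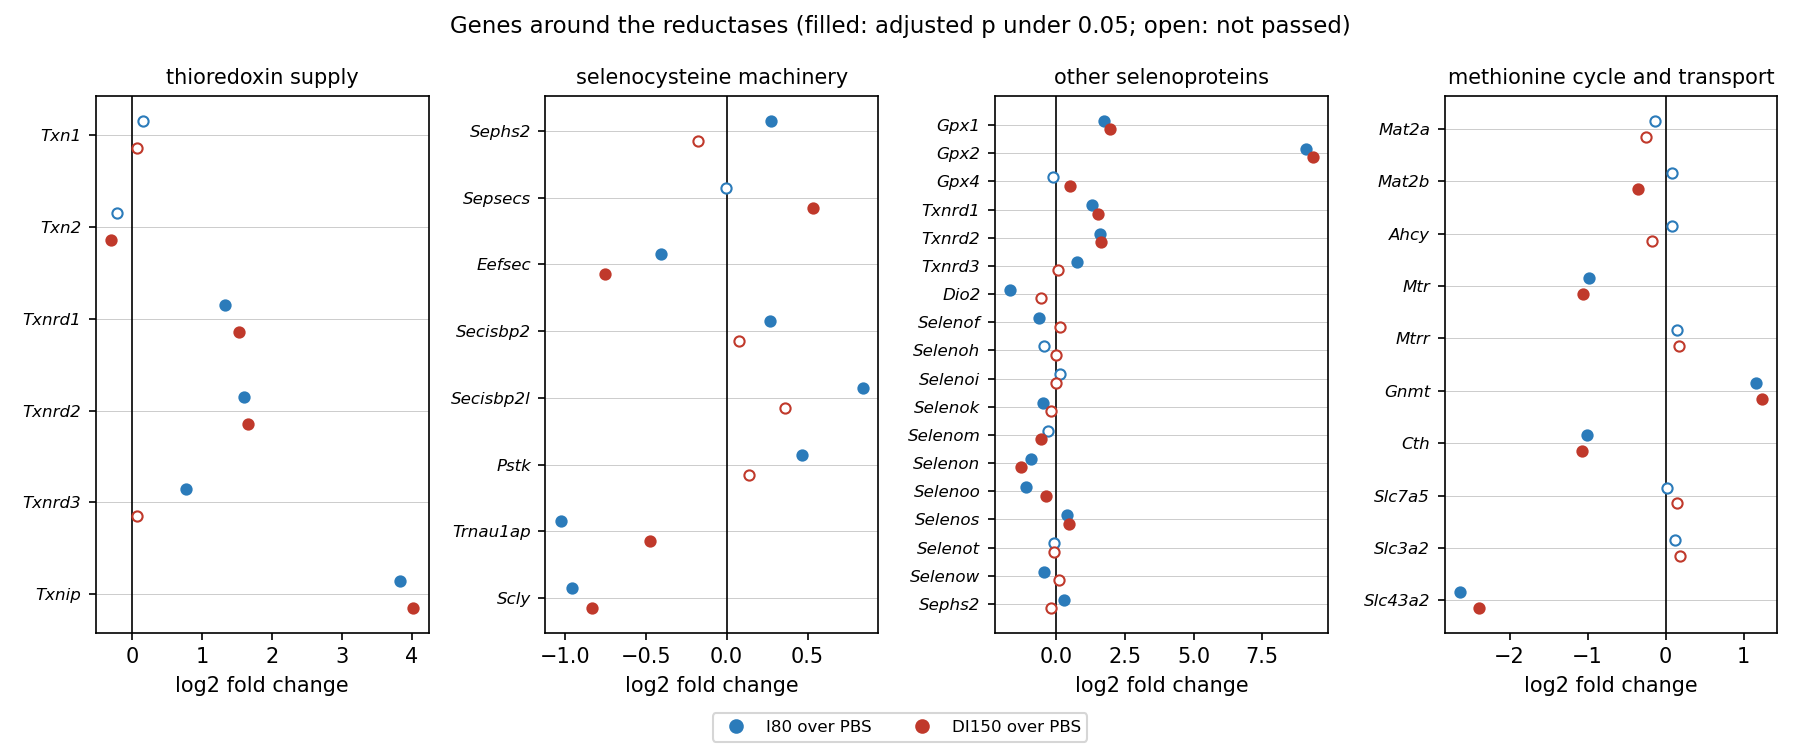
Log2 fold change against PBS of the tested genes in 4 lists around the reductases, for I80 and DI150, with filled points for an adjusted p under 0.05 and a separate horizontal scale in each panel. Txnrd1, Txnrd2 and Txnip lie right of 0 in both lines, the selenoprotein genes scatter to both sides with Gpx2 at 9.09 and 9.34, and Slc43a2, Mtr and Cth lie left of 0, the calls of Cth being lost without PBS replicate 2 in either line and without I80 replicate 2 in I80.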

How the data were processed

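The authors deposited 1 table of CPM with 24454 mouse gene numbers and 6 library columns, each summing to 1000000. Per the submitters' processing notes, STAR and the mm10 build were used. Which program counted genes, with which annotation and whether by strand, is not given in the sources used here. A DI150 column bears the number 3, which no DI150 label bears, and was used as a DI150 replicate under that number. Gene numbers were matched to RefSeq (GRCm38.p6), 24374 of them, all 4 reductase genes included. Dividing by the worth of 1 read gave whole reads for 100% of values, within 1e-06 of the read number (of 1 read for values under 1).

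The 11428 genes that averaged 1 CPM or more were tested two-sided on log2(CPM + 0.5) in R 4.3.3 by limma 3.58.1 (lmFit, then eBayes with its trend option), with all 3 groups in 1 fit (3 residual degrees of freedom and a prior of 4.52). Benjamini-Hochberg adjustment covered all tested genes, and a call is an adjusted p under 0.05. Folds are ratios of mean CPM. The log2 scale with a pseudocount understates changes of low genes, so a ratio and its log2 fold change can differ.

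The members, lists and tests were chosen with earlier results of these data known. Outside the 4 members and the thioredoxin and thioredoxin reductase genes Txn1, Txn2, Txnrd1 and Txnrd2, the text names per list and comparison up to 3 called genes with the largest absolute log2 fold change and a mean of at least 5 CPM. Genes outside this rule (Mical1, Mical2, Mical3, Selenop, Cth and the cell type markers) were named after their values were seen. One gene of the immune marker list is not reported here. Alternatives were other pseudocounts, filters and scalings, fits on 4 libraries, a replicate block, each library left out, and edgeR 4.0.16 and DESeq2 1.42.0 on the recovered reads. The scripts were tested on simulated data. Replicates differed by more than counting noise (chi-square per degree of freedom 23.3 in PBS, 4.39 in I80 and 9.42 in DI150).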

Additional observations from a re-analysis of the deposited data

Results flagged for a closer look

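A flag was set for 9 genes whose changes in the 2 treated lines against PBS differ from each other, tested by limma as DI150 against I80. It was applied only to the 4 reductases, to Txn1, Txn2, Txnrd1 and Txnrd2, and to the genes picked for naming in this comparison. Among the reductases the flagged genes are Msrb1 (log2 fold change 0.45) and Msrb3 (0.46), with the dependence on single libraries given above. The others were picked for naming because they were called in this same comparison, so that they pass it follows from the choice and is no separate result. Of them, Selenof (0.78), Selenoo (0.75), Trnau1ap (0.55) and Sepsecs (0.54) were higher in DI150 than in I80, and Txnrd3 (-0.71), Secisbp2l (-0.49) and Mat2b (-0.44) were lower. The call of Secisbp2l is lost without an expression filter (limma adjusted p = 0.079) and without any one of the 4 DI150 and I80 libraries (0.12 to 0.165), and that of Sepsecs without I80 replicate 1 (0.0559). Their log2 fold changes against PBS in DI150 and in I80 were 0.14 and -0.64 for Selenof, -0.37 and -1.12 for Selenoo, -0.47 and -1.03 for Trnau1ap, 0.54 and -0.002 for Sepsecs, 0.07 and 0.78 for Txnrd3, 0.36 and 0.84 for Secisbp2l, and -0.36 and 0.08 for Mat2b. Of the pathway and marker genes named that the flag did not cover, Epcam and Pdgfra were also higher in DI150 than in I80 (limma adjusted p = 0.00126 and 0.0477). Eefsec, Krt8 and Col1a1 were lower (limma adjusted p = 0.0128, 0.0449 and 0.00616). In this comparison 43.8% of all tested genes were called.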

How the results depend on the processing

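Against PBS, the 8 changes of the 4 genes kept their direction and stayed called in every alternative run, with log2 fold changes in I80 from -1.32 to -0.96 for Msra, 0.70 to 0.96 for Msrb1, 2.44 to 2.99 for Msrb2 and 1.79 to 2.09 for Msrb3. In DI150 they ran from -1.02 to -0.74, 1.154 to 1.41, 2.17 to 2.72 and 2.25 to 2.55. For DI150 against I80, leaving out 1 library gave 0.42 to 0.49 for Msrb1 (adjusted p 0.00549 to 0.0799) and 0.45 to 0.47 for Msrb3 (0.00167 to 0.06), and apart from the libraries named above every fit called both. The difference of Msrb2, -0.28, passed in the fit on the 4 libraries compared (adjusted p = 0.0486) and in no other. Genes called in this comparison numbered 2487 to 5972 with 1 library left out. On the recovered reads, edgeR called 7610 genes and DESeq2 7341 for I80 against PBS, 7852 and 7496 for DI150 against PBS, and 4997 and 4739 between the treated lines. Fits that leave a line with 1 library assume that it varies like the others. With the replicate number as a block on the 4 PBS and I80 libraries, Msra was at -1.22, Msrb1 at 0.83, Msrb2 at 2.72 and Msrb3 at 1.94, all called, with 7173 genes called in all. The deviations of same-numbered PBS and I80 libraries correlated at 0.0228, so the numbers were not taken to pair samples. No paired analysis was possible for DI150 because its columns share only 1 number with the other lines. For 65 differences of pathway and marker genes (Krt8, Krt18, Krt19, Cldn4 and Csf1r not included), 994 alternative values were computed: 23 lost and 10 gained a call and 0 reversed. Of the losses, Mical2 in DI150 against PBS had 8, and Secisbp2l in DI150 against I80 5. The call of Selenoo in DI150 against PBS was lost without DI150 replicate 1, and that of Col1a1 without either DI150 library. In the treated libraries counting error limits Msra most, with about 100 reads in each, and in the PBS libraries it limits Msrb2 most, with 81 and 116 reads.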
